A study of Rattus norvegicus with 32 samples.

Results

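Interferon-stimulated genes were followed in liver sinusoidal endothelial cells (LSECs) of healthy rats and of rats with liver disease. The members are 37 genes given by symbol, from antiviral effectors to the transcription factors that switch them on, chosen by the pathway they belong to and with earlier results of these data known. Of these, 36 were found among the 32623 genes of the count files. Xaf1 is not analysed here. All 36 passed the filter on low counts in each of the 6 comparisons.

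LSECs line the sinusoids of the liver. They came from male rats, and each of the 32 libraries was labelled as a separate sample. In the carbon tetrachloride (CCl4) experiment, Wistar Han rats inhaled CCl4 for 2 weeks (acute, n = 5), 6 weeks (fibrosis, n = 5) or 12 to 14 weeks (cirrhosis, n = 6), and were compared with healthy rats (n = 6). The drinking water in this model held phenobarbital, and cells were isolated some days after the last dose of the toxicant. A second set of 10 libraries belongs to a thioacetamide (TAA) experiment, with 5 labelled control and 5 labelled TAA control. These labels do not settle which group received TAA, and the strain is given as Wistar Han in the labels but as Sprague-Dawley in the study's methods, so both groups are called by their labels and no direction of disease is drawn from them. The study's figure legends give 5 to 6 independent isolations of LSECs for each model, stage and healthy group. Where the labels do not say that libraries came from different animals, p-values measure the spread between these samples, which may be partly technical.

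Total expected counts ran from 25646531 to 46464289 a library. The listed LSEC markers, 9 of 10 of which were found, summed to 14100 to 26590 CPM (counts scaled to the size of the library) in healthy libraries, 3605 to 4214 in acute, 2522 to 3538 in fibrosis and 14030 to 17760 in cirrhotic ones. LSEC markers were thus lower in every acute and fibrosis library than in any healthy or cirrhotic one. Summed CPM of 10 immediate-early genes, transcripts that are induced within minutes when tissue is taken apart, was 40510 to 69480 in healthy, 913 to 2385 in acute, 1930 to 3140 in fibrosis and 18920 to 42080 in cirrhotic libraries. The 10 macrophage markers summed to 374 to 4062, 84.8 to 249, 37.3 to 234 and 911 to 3231 in the same order, and the 8 T and NK cell markers to 25.3 to 506, 0.991 to 6.43, 2.79 to 37.8 and 23.1 to 56.3. The 8 hepatocyte markers summed to 1330 to 28340, 147 to 932, 1308 to 5210 and 2995 to 14690, and the 8 stellate cell markers to 282 to 783, 1313 to 2132, 1278 to 1703 and 612 to 1899. The stellate cell sums are mostly Reln in acute and fibrosis libraries (1306 to 2124 and 1174 to 1570 CPM, against 118 to 216 in healthy ones). Of the 7 stellate cell markers tested, 5 were lower and 1 higher in acute LSECs and 3 and 2 at fibrosis. By the same rule, given below, 37.9% of all genes were lower and 35.5% higher in acute LSECs, and 34.9% and 35.3% at fibrosis. Markers of B cells, neutrophils and cholangiocytes summed to at most 45.2 CPM in any library of either experiment. In these lists, 1 neutrophil marker was at 0 in all acute libraries and 1 B cell marker in all libraries labelled control. The lists moved with the groups in the CCl4 experiment, and their part in the changes described here was not tested. In bulk samples, fewer cells of a type and less RNA per cell cannot be told apart.

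Type I interferon signals through the receptor chains IFNAR1 and IFNAR2 to a complex that holds STAT2 and IRF9 and binds interferon-stimulated response elements (ISREs) upstream of its target genes. Interferon gamma acts through gamma-activated sites (GAS) and induces IRF1 and guanylate-binding proteins. The products of the target genes sense viral RNA, block translation or viral assembly, tag proteins with ISG15 and, through IRF7, amplify the signal. LSECs face gut-derived blood and carry receptors for microbial ligands.

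The stretches of DNA just before the genes' starts are shown because they can be compared between genes that were lower and genes that were higher in disease. RefSeq promoters on the rat build GRCr8 were matched by symbol for 26 of the 36 measured members. The letters GAAANNGAA, the core of the ISRE, were searched on both strands in the 250 bases before the start, overlapping matches included. They were found in 15 of 26 members (57.7%) and in 8.12% of all 33469 promoters in the table. The letters TTCNNNGAA, the core of GAS, which reads the same on both strands, were found in 5 of 26 (19.2%) against 7.67% of all promoters. The 5 were Oas1a, Irf1, Irf9, Parp14 and Bst2. For 15 of the 26 the start used lies inside the annotated gene, so that the bases before it may be transcribed from another start. The upstream 150 bases are shown for 4 genes that were lower in acute LSECs (Ifit3, Ifih1, Parp14 and Bst2) and for 2 that were higher (Gbp2 and Gbp5), whose starts do not lie inside the annotated gene, and capitals mark the ISRE core on either strand. All of the genes shown hold the core, while 15 of 26 members did, so these stretches do not show how often members carry it. A match is a description of the letters and not evidence of binding.
Ifit3, chr1:241527176-241527325 (+): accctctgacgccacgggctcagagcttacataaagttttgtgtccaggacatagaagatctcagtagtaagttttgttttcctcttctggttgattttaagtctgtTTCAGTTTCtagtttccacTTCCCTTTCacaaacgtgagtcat
Ifih1, chr3:67683969-67684118 (-): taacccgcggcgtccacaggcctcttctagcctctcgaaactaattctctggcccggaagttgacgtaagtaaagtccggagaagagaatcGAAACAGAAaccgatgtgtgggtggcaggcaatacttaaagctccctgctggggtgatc
Parp14, chr11:78407984-78408133 (+): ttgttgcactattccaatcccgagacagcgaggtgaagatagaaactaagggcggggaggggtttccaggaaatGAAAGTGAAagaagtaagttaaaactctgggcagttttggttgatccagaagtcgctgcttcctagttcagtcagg
Bst2, chr16:18254968-18255117 (-): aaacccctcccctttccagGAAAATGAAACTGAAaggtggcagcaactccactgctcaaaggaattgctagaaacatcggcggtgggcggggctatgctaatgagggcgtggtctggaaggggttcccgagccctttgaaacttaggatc
Gbp2, chr2:234005577-234005726 (+): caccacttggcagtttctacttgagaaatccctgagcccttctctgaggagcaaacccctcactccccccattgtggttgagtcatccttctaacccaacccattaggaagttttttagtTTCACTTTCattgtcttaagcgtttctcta
Gbp5, chr2:233910849-233910998 (+): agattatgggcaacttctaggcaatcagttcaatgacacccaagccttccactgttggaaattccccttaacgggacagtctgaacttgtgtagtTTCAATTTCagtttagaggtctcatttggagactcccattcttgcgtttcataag

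The cores lay between bases 43 and 35 and between 24 and 16 before the start in Ifit3, between 76 and 68 in Parp14, between 59 and 51 in Ifih1 and between 30 and 22 in Gbp2. Bst2 holds 2 overlapping cores between bases 131 and 117. Gbp5 holds 1 core in the stretch shown, between bases 55 and 47, and another between bases 159 and 151. Of the members with a promoter, all 3 that were higher in acute LSECs (Isg20, Gbp2 and Gbp5) held an ISRE core, as did 11 of the 21 that were lower.

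In acute LSECs, after 2 weeks of CCl4, most interferon-stimulated genes were lower than in healthy LSECs. Of 36 members 30 were lower and 3 higher, where lower and higher stand for a Benjamini-Hochberg adjusted p under 0.05 over all genes in limma-voom and a fold above 1.5. Of all genes tested 37.9% were lower and 35.5% higher by the same rule. The median log2 fold change was -1.95 over the members and -0.086 over all genes. In 19 members every acute library was below every healthy one, which held for 30.8% of all genes, and in 2 every one was above (29.2%). With library totals in place of TMM factors, which moved the median of all genes by 0.41 on the log2 scale, 26 members were lower and 3 higher.

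**Figure D1:**
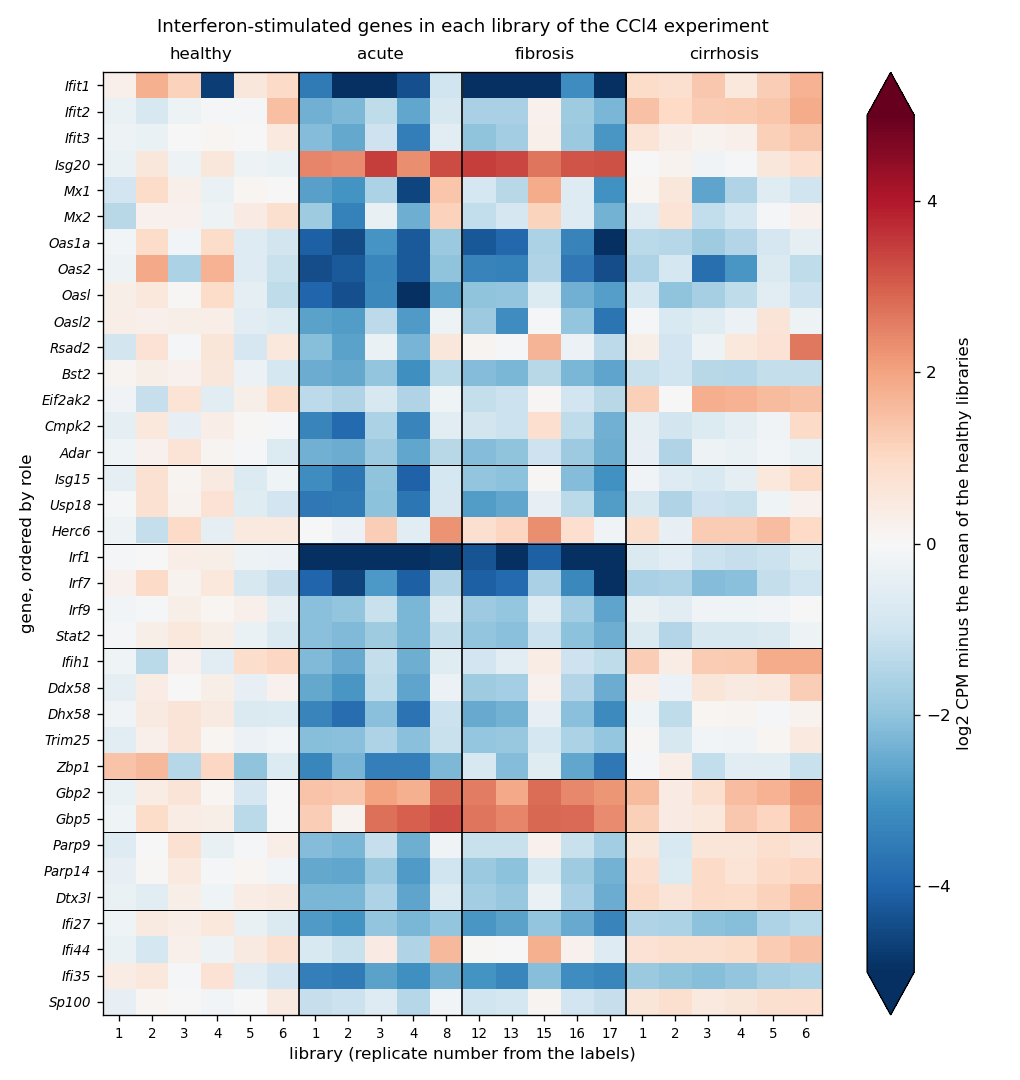
Heat map of log2(CPM + 0.1) of the 36 measured interferon-stimulated genes (rows, ordered by role) in the 22 libraries of the CCl4 experiment (columns), shown as the difference from the mean of the 6 healthy libraries, with colours that end at 5 in either direction. Most genes are blue in the acute and fibrosis libraries and close to white in the cirrhotic ones, while Isg20, Gbp2 and Gbp5 are red in acute and fibrosis libraries, and acute library 8 and fibrosis library 15 are paler than the other libraries of their groups.

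All 4 transcription factors were lower. Irf1, an early target of interferon gamma, had 3173, 3824 and 5005 CPM (lowest, median and highest) in the healthy libraries. It had 66.3, 85.5, 89.6, 75.9 and 135 CPM in acute libraries 1, 2, 3, 4 and 8. Every acute library was far below the healthy range, with a 43.8-fold lower level (log2 fold change -5.45 ± 0.20 SE, adjusted p = 1.77e-09). All 10 immediate-early genes were lower in the same comparison, and their part in the level of Irf1 was not tested.

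Irf7, the factor that amplifies type I interferon, had 391, 995 and 1676 CPM in healthy libraries (lowest, median and highest). Acute libraries 1, 2, 3, 4 and 8 had 55.3, 35, 117, 50.8 and 304 CPM. The groups did not overlap, although acute library 8 came closest to the lowest healthy value, and the log2 fold change was -3.38 ± 0.54 (adjusted p = 0.000107).

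Stat2 and Irf9, which are parts of the ISRE-binding complex, were lower by less. Stat2 had 164, 290.5 and 386 CPM in healthy libraries and 62.7, 57.5, 78.8, 54.2 and 118 in acute ones. Its log2 fold change was -1.88 ± 0.26 (adjusted p = 3.13e-05). In both genes library 8 was the highest acute library and still below every healthy library. Irf9 had 124, 171 and 204 CPM in healthy libraries and 39.3, 43.1, 77, 34.6 and 100.1 in acute ones, with a log2 fold change of -1.61 ± 0.27 (adjusted p = 0.000154).

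Of 15 antiviral effectors 13 were lower, 1 was higher and 1 (Mx2) was neither. The oligoadenylate synthetase family, whose enzymes sense double-stranded RNA, held 3 of the 6 largest falls of all members. Oasl, a family member without synthetase activity, had 507, 1377 and 2284 CPM in healthy libraries and 78.1, 57.4, 129, 33.8 and 189 in acute ones. Its log2 fold change of -3.87 ± 0.46 (adjusted p = 9.95e-06) came with no overlap between the groups. Oas1a had 58.3, 102 and 214 CPM in healthy libraries and 6.45, 4.99, 14.3, 5.92 and 30.4 in acute ones. Its log2 fold change was -3.53 ± 0.50 (adjusted p = 3.82e-05), again with no overlap. Oas2 had 3.32, 7.52 and 38.1 CPM in healthy libraries and 0.381, 0.463, 0.972, 0.461 and 2.43 in acute ones. Its groups did not overlap either, and the log2 fold change was -3.78 ± 0.89 (adjusted p = 0.00184).

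Ifit1, which binds viral RNA that lacks the cap methylation of host RNA, split the libraries of single groups. Healthy library 4 had 7.74 CPM, while the other healthy libraries had 247 to 707. Acute libraries 1, 2, 3, 4 and 8 had 17.8, 0.681, 1.72, 9.65 and 104 CPM. The groups overlapped through healthy library 4 alone, and the log2 fold change was -4.81 ± 1.39 (adjusted p = 0.00702). It became -5.68 without healthy library 4, -5.68 without acute library 8 and -3.94 without acute library 2, and the call held in each. Its relatives Ifit2 and Ifit3 had 461 and 509 CPM in healthy library 4, inside the range of the other healthy libraries. Expected counts of Ifit1 were not whole in any of the 32 libraries, so that its reads were shared with another feature, and Ifit1bl, another gene of the family, did not exceed 35.3 CPM in any library. Mx1, Mx2 and Irf7 also had fractional counts in 32 libraries and Oas1a and Sp100 in 31, while 27 members had counts within 0.005 of a whole number everywhere. The call of Mx1 (log2 fold change -2.19 ± 0.77) was lost without acute library 1, 2 or 4 (-1.48 without library 4), and the value was -3.00 without acute library 8.

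Isg15, the small protein that is attached to others during the interferon response, had 139.5, 215 and 378 CPM in healthy libraries. Acute libraries 1, 2, 3, 4 and 8 had 25.5, 18.2, 54.6, 13.2 and 122 CPM. All lay below the healthy libraries, with a log2 fold change of -2.71 ± 0.50 (adjusted p = 0.000324). Usp18, which removes ISG15 and dampens the receptor, was lower as well (-2.72 ± 0.51, adjusted p = 0.00036), while Herc6, the ligase that attaches ISG15 in rodents, had a log2 fold change of 0.56 ± 0.52 and did not pass (adjusted p = 0.332).

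All 5 nucleic acid sensors and their regulators were lower, with log2 fold changes of -1.76 for Trim25, which activates RIG-I, -1.77 for Ifih1 (MDA5), -1.94 for Ddx58 (RIG-I), -2.81 for Dhx58 (LGP2) and -3.31 for Zbp1. Parp9, Parp14 and Dtx3l, which act together in ADP-ribosylation and ubiquitination during the interferon response, had -1.63, -2.13 and -1.87 and were called lower. Of the other interferon-induced proteins, Ifi35, Ifi27 and Sp100 were lower and Ifi44 was not called (-0.27 ± 0.51). The value of Zbp1 rests on few counts, with at most 0.442 CPM in acute libraries, where 3 counts corresponded to 0.0691 to 0.0947 CPM.

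The 3 members that were higher in acute LSECs were Isg20, Gbp2 and Gbp5. Isg20, an exonuclease that degrades single-stranded RNA, had 2.91, 3.09 and 5.58 CPM in healthy libraries and 20.5, 19.2, 41.2, 18.7 and 36.3 in acute ones. It was 7.09-fold higher with no overlap (log2 fold change 2.83 ± 0.32, adjusted p = 5.46e-06). Gbp2 and Gbp5 are large GTPases that attack the vacuoles of intracellular bacteria. Gbp2 had 53, 97.8 and 148 CPM in healthy libraries and 250.2, 238, 377, 325 and 660.3 in acute ones, a log2 fold change of 1.91 ± 0.31 (adjusted p = 0.000119) with no overlap. Gbp5 had 15, 42.1 and 71 CPM in healthy libraries and 89.3, 42.5, 257, 298 and 358 in acute ones, where library 2 alone lay in the healthy range (2.11 ± 0.56, adjusted p = 0.00417). Weighting libraries by their quality took the call of Gbp5 away (1.34, adjusted p = 0.0869).

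**Figure D2:**
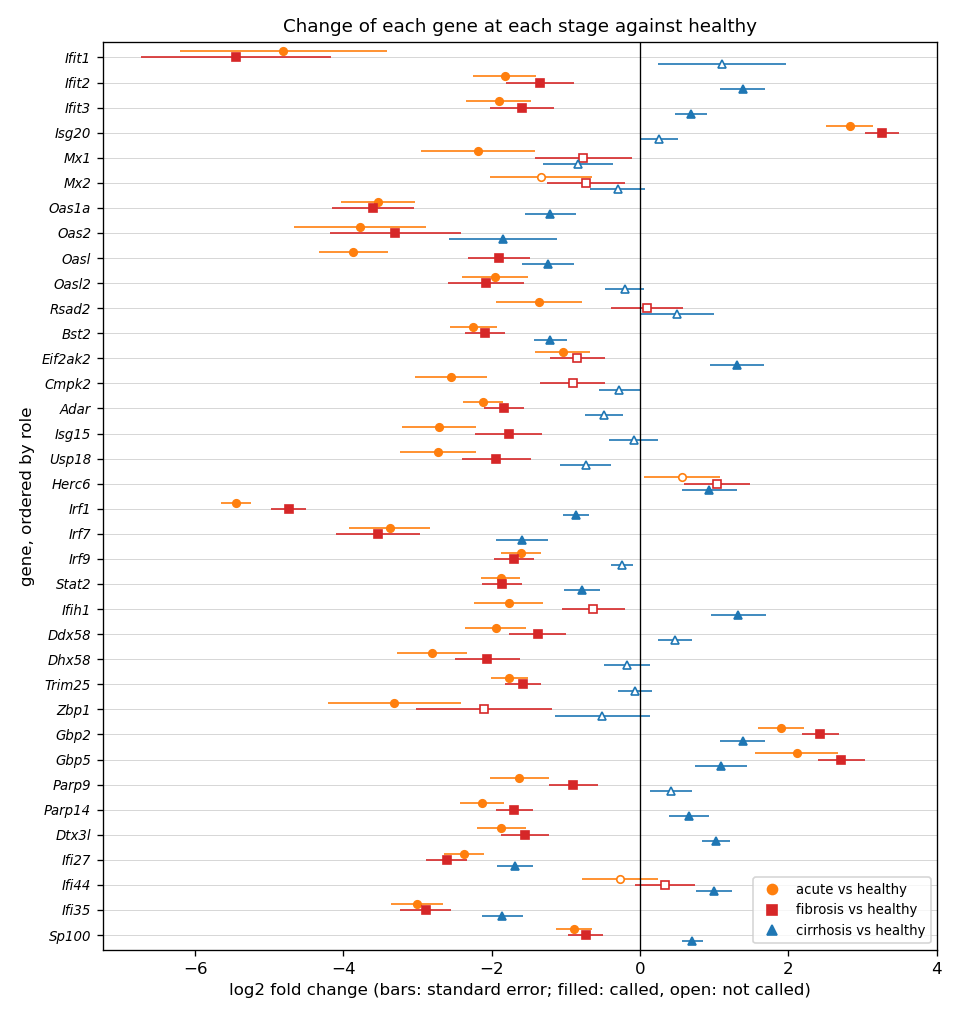
Log2 fold change (horizontal axis) of the 36 measured interferon-stimulated genes (vertical axis) in acute, fibrosis and cirrhotic LSECs, each against the same 6 healthy libraries, where bars are standard errors, filled symbols mark genes that were called and open ones genes that were not. Most acute and fibrosis values lie left of 0, down to -5.45, and those of cirrhosis lie between -1.86 and 1.39.

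After 6 weeks of CCl4, at fibrosis, 24 of 36 members were lower than in healthy LSECs and 3 were higher. Of all genes tested 34.9% were lower and 35.3% higher. The median log2 fold change was -1.64 over the members and -0.031 over all genes. In 11 of 36 members all fibrosis libraries were below all healthy ones, a share close to the 29.1% of all genes. In 3 members all were above (29.7% of all genes). With library totals in place of TMM factors, a shift of 0.40 in the median of all genes, 21 members were lower and 4 higher. The healthy libraries are those used for the acute group, so both sets of values share them.

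Ifit1 had 3.47, 3.5, 3.66, 23.8 and 1.6 CPM in fibrosis libraries 12, 13, 15, 16 and 17 (log2 fold change -5.45 ± 1.28, adjusted p = 0.00209). Without healthy library 4 the log2 fold change was -6.41, and without fibrosis library 16 it was -6.06. Irf1 had 195, 104, 234, 109 and 106 CPM, all below the healthy range (-4.74 ± 0.24, adjusted p = 1.1e-08). Both genes were thus far below their healthy medians at this stage as well.

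Oas1a had 5.83, 7.27, 36.8, 10.8 and 3.3 CPM (-3.60 ± 0.55, adjusted p = 8.47e-05) and Irf7 had 50.7, 57.9, 281, 92.3 and 23.7 (-3.54 ± 0.56, adjusted p = 0.000118). Neither overlapped with healthy libraries. Oas2 had 0.918, 0.905, 3.53, 0.775 and 0.379 CPM (-3.30 ± 0.88, adjusted p = 0.00474), with fibrosis library 15 alone above the lowest healthy library. Ifi35, a partner of the signalling regulator NMI, had 40.8, 88.3 and 129 CPM in healthy libraries and 9.84, 8.18, 17.9, 9.21 and 8.25 in fibrosis ones (-2.89 ± 0.34, adjusted p = 1.06e-05). No fibrosis library reached the healthy range.

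Isg15 had 56.5, 53.8, 227, 49.3 and 27 CPM in fibrosis libraries (-1.77 ± 0.45, adjusted p = 0.0037). Library 15 lay inside the healthy range and the other 4 below it. Stat2 had 68.4, 63.2, 128, 65.1 and 48.6 CPM (-1.86 ± 0.27, adjusted p = 5.33e-05) and Irf9 had 47.8, 43.7, 106, 49.5 and 26.7 (-1.70 ± 0.28, adjusted p = 0.000141). All libraries of both genes were below the healthy ones.

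Isg20, Gbp5 and Gbp2 were the 3 higher members at fibrosis too. Isg20 had 41.8, 37.9, 23.8, 33.5 and 34.3 CPM (3.26 ± 0.23, adjusted p = 1.63e-07). Gbp5 had 244, 205, 279.5, 273 and 197 CPM (2.71 ± 0.32, adjusted p = 9.99e-06). Gbp2 had 554, 346, 645, 496 and 436 CPM (2.43 ± 0.25, adjusted p = 3.81e-06). None of the 3 overlapped with the healthy libraries.

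Of the 9 members not called at fibrosis, Rsad2 (viperin, which blocks viral assembly) was at 0.10 ± 0.48, Ifi44 at 0.34 ± 0.40 and Herc6 at 1.03 ± 0.44, adjusted p = 0.0511. The other uncalled members had negative values from -0.63 for Ifih1 to -2.10 for Zbp1, of which that of Mx1 turned to 0.052 in edgeR and 0.073 in DESeq2. The direct comparison of fibrosis with acute LSECs, which uses no healthy library, gave 1 member higher and 0 lower in limma-voom, against 10.2% and 0.732% of all genes. Over the members the median log2 fold change was 0.52, against 0.0043 over all genes. In 0 members all fibrosis libraries were above all acute ones (6.48% of all genes). At an unadjusted p under 0.05, 5 members were higher and 0 lower, edgeR called 1 and 0, and DESeq2 called 2 and 0. The member was Oasl, with 299, 314, 766, 229 and 180.4 CPM in fibrosis libraries and a log2 fold change of 2.02 ± 0.49 (adjusted p = 0.0177), where fibrosis library 17 alone fell under the highest acute library. Without acute library 8, 6 members were higher. Without both acute library 8 and fibrosis library 15, an alternative chosen after seeing the data, 7 were higher (Oasl, Isg20, Irf1, Ifih1, Rsad2, Gbp2 and Cmpk2). Both libraries stand out by the levels of these same members, as described next. The shares of all genes in these reduced fits are not given here, so the counts do not set the members apart from other genes.

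In each of these groups 1 library stood above the rest. Acute library 8 was the highest of its group in 35 of 36 members and fibrosis library 15 in 34 of 36, with medians over the members 3.15-fold and 2.82-fold above the other libraries of the group. Over all genes, acute library 8 was the highest in 31.3% and fibrosis library 15 in 21.5%, and their median difference from the other libraries was -0.029 and -0.0022 on the log2 scale. Acute library 3 was also above its group, by 2.06-fold, and fibrosis library 17 was the lowest in 31 members (0.575-fold of the rest). Isg20 went the other way and was at its lowest in fibrosis library 15.

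Macrophage markers summed to 84.8 CPM in acute library 8, the lowest of its group, and to 234 in fibrosis library 15, the highest of its group. T and NK cell markers summed to 1.86 CPM in acute library 8, within the range of its group, and to 2.79 in fibrosis library 15, the lowest of its group. Neutrophil markers summed to 1.1 CPM and B cell markers to 0.726 in acute library 8, each the highest of its group. In fibrosis library 15 these sums were 0.266 and 0.732 CPM, each the lowest of its group. Immediate-early genes summed to 2385 in acute library 8 and 3140 in fibrosis library 15, the highest of each group. The part of these markers in the level of the 2 libraries was not tested. Without acute library 8, 31 members were lower in acute than in healthy LSECs, and without fibrosis library 15, 29 were lower at fibrosis.

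**Figure D3:**
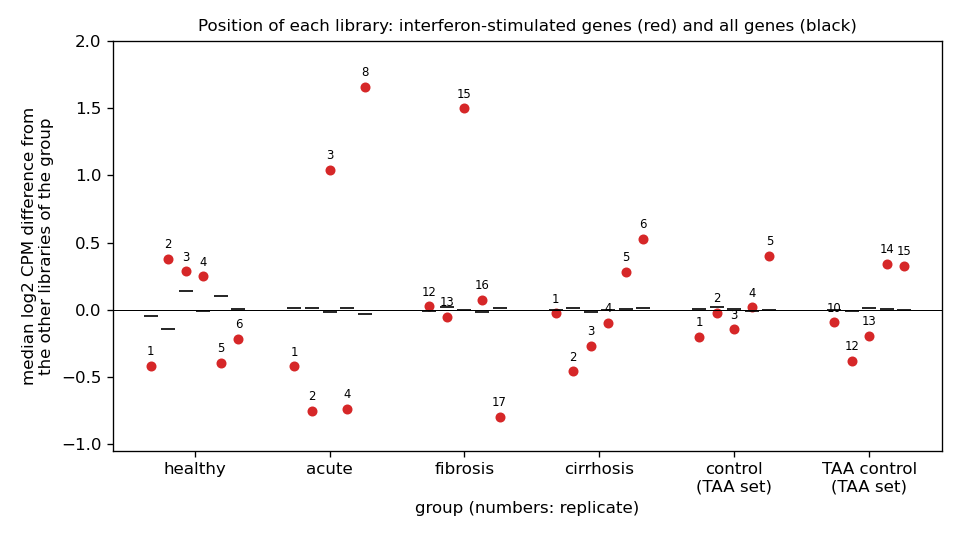
Median over the 36 interferon-stimulated genes (red points) and over all genes (black dashes) of the log2 CPM of each library minus that of the other libraries of its group (vertical axis), by group (horizontal axis) and with replicate numbers. Acute library 8 (3.15-fold) and fibrosis library 15 (2.82-fold) stand highest, while the black dashes stay near 0.

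In cirrhotic LSECs, after 12 to 14 weeks of CCl4, the interferon-stimulated genes were split. Of 36 members 11 were higher than in healthy LSECs and 9 lower (30.6% and 25%), against 27.1% and 24.7% of all genes, shares close to these. The median log2 fold change was -0.13 over the members and 0.07 over all genes, and that of the members turned to 0.21 with library totals and 0.0094 with upper-quartile factors. The groups did not overlap for 2 members above (10.1% of all genes) and 4 below (17% of all genes). With library totals in place of TMM factors, a shift of 0.35 in the median of all genes, 13 members were higher and 6 lower. In 1 fit over the 4 CCl4 groups 7 were higher and 9 lower.

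The members that rose were spread over the roles, with 3 of 15 effectors, 1 of 5 sensors, both guanylate-binding proteins and 2 of 3 genes of the PARP9 and DTX3L group. Ifit2, an RNA-binding protein that blocks translation, had 967, 1211 and 1712 CPM in cirrhotic libraries (lowest, median and highest) against 273, 428 and 1366 in healthy ones (1.39 ± 0.30, adjusted p = 0.00213). Healthy library 6 alone reached the cirrhotic range. Ifih1, the sensor of long double-stranded RNA, had 208, 394 and 580.3 CPM against 63.6, 163 and 327 (1.32 ± 0.37, adjusted p = 0.00853). Eif2ak2 (PKR), the kinase that stops translation when it binds double-stranded RNA, had 174, 507 and 619.8 CPM against 79.4, 187 and 325 (1.31 ± 0.37, adjusted p = 0.00893). In both genes cirrhotic library 2 was the lowest and alone lay inside the healthy range.

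Dtx3l, a ubiquitin ligase, had 187, 233 and 338 CPM in cirrhotic and 82.4, 127 and 162 in healthy libraries, without overlap (1.02 ± 0.19, adjusted p = 0.000826). Gbp2 had 126, 279 and 409.8 CPM (1.39 ± 0.30, adjusted p = 0.00224) and Gbp5 had 50.6, 83.2 and 143 (1.09 ± 0.35, adjusted p = 0.0164). Both overlapped with the healthy libraries. The other members that rose were Ifi44, Herc6, Sp100, Ifit3 and Parp14, by 0.66 to 1.0 on the log2 scale. The calls of Herc6 and Parp14 were lost when any 1 of 8 and of 10 of the 12 libraries was left out, and that of Ifit3 without cirrhotic library 6, where its log2 fold change of 0.54 was under the fold of 1.5.

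The 9 members that fell were all lower in acute and fibrosis LSECs too, against the same healthy libraries. Ifi35 had 18, 20.9 and 26.3 CPM in cirrhotic libraries (-1.86 ± 0.27, adjusted p = 0.000207). Ifi27, a small hydrophobic membrane protein, had 327, 484 and 575 CPM against 887, 1534 and 2103 (-1.69 ± 0.24, adjusted p = 0.000175). Bst2 (tetherin), which holds budding virus at the membrane, had 324, 386 and 438 CPM against 475, 991 and 1294 (-1.21 ± 0.22, adjusted p = 0.000788). All 3 were without overlap.

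Irf7 had 189, 285 and 432 CPM in cirrhotic libraries and overlapped with the lowest healthy library alone (-1.60 ± 0.35, adjusted p = 0.00221). Irf1 had 1784, 2134 and 2691 CPM and lay below every healthy library (-0.87 ± 0.17, adjusted p = 0.00126), and Stat2 had 97.1, 159 and 223 CPM (-0.78 ± 0.24, adjusted p = 0.0129). Of the transcription factors, 3 of 4 were thus lower than in healthy LSECs. Irf9 (116, 145 and 164 CPM) and Isg15 (129, 177 and 433 CPM) had log2 fold changes of -0.24 ± 0.15 and -0.088 ± 0.33, were not called, and turned to 0.11 and 0.26 with library totals in place of TMM factors.

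Of the oligoadenylate synthetase family, Oas2, Oasl and Oas1a fell and Oasl2 was not called (adjusted p = 0.516). Oas2 had 0.66, 3.8 and 6.22 CPM in cirrhotic libraries (-1.84 ± 0.73, adjusted p = 0.0438), and its call was lost when any 1 of 7 of the 12 libraries was left out. Oasl had 302, 546 and 824 CPM (-1.24 ± 0.35, adjusted p = 0.00941) and Oas1a had 32.7, 42.6 and 80 (-1.21 ± 0.34, adjusted p = 0.00919). All 3 that fell overlapped with healthy libraries.

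Compared with fibrosis, 25 members were higher in cirrhotic LSECs and 3 lower, against 34.3% and 29.5% of all genes. The median log2 fold change was 1.51 over the members and 0.038 over all genes. In 10 of 36 members every cirrhotic library was above every fibrosis library, which held for 30.8% of all genes, a share close to that of the members. In 2 members every cirrhotic library was below (32.5% of all genes). The 3 lower members were Isg20, Gbp5 and Gbp2, those that were higher in fibrosis than in healthy LSECs, and both comparisons share the fibrosis libraries.

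Ifit1 had 297, 435 and 677 CPM in cirrhotic libraries, 97.5-fold above the fibrosis libraries and without overlap (6.61 ± 0.50, adjusted p = 1.51e-07). The log2 fold change was 7.23 without fibrosis library 16. Irf1 was 15.2-fold higher (3.93 ± 0.24, adjusted p = 2.62e-08), also without overlap. Ifit2 rose by 2.78 ± 0.38, Dtx3l, with 35.9, 32.4, 95.1, 39.5 and 21.4 CPM at fibrosis, by 2.64 ± 0.31 and Parp14, with 576, 1716 and 1943 CPM in cirrhotic libraries and 251, 221, 539, 264 and 179 at fibrosis, by 2.41 ± 0.33. Ifit2 had 156, 157, 553, 139.9 and 98.9 CPM at fibrosis. None of the 3 overlapped between the groups. Oas1a rose by 2.46 ± 0.46, and fibrosis library 15 alone lay in its cirrhotic range.

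Isg15 rose by 1.74 ± 0.49 (adjusted p = 0.00625), Irf7 by 1.99 ± 0.52 (adjusted p = 0.0037), Irf9 by 1.52 ± 0.27 (adjusted p = 0.000222) and Stat2 by 1.13 ± 0.24 (adjusted p = 0.000974). Isg20 had a log2 fold change of -2.96 ± 0.20 and 3.25, 3.95 and 6.66 CPM, below every fibrosis library (adjusted p = 6.35e-08). Gbp5 was at -1.57 ± 0.24 (adjusted p = 7.81e-05) and Gbp2 at -0.99 ± 0.28 (adjusted p = 0.00684), the former without overlap.

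The comparisons of acute with healthy and of cirrhosis with fibrosis share no library. Of the 30 members lower in acute LSECs 25 (83.3%) were higher in cirrhosis than at fibrosis, which were 100% of the members higher there. Over the 14210 genes tested in both, 3903 (27.5%) did so, or 72.7% of the genes lower in acute LSECs and 83.6% of those higher in cirrhosis. The difference between the members and all genes was not tested. Sums of immediate-early genes and LSEC markers were also lower in acute than healthy and higher in cirrhotic than fibrosis libraries, as given above. Disease stage and these differences between the libraries cannot be told apart here.

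**Figure D4:**
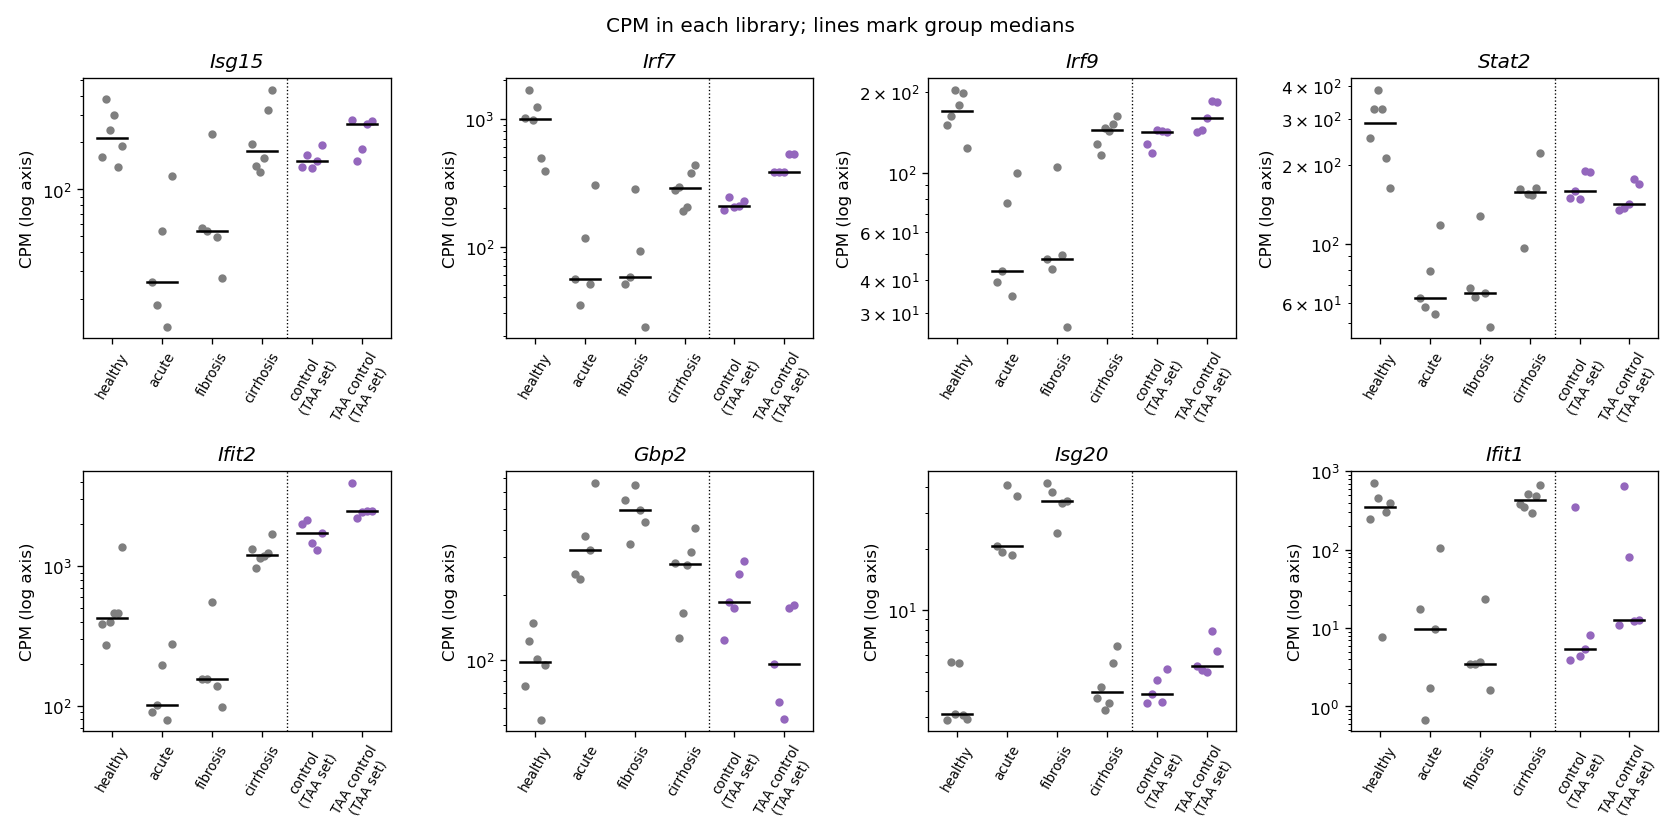
CPM on a log axis (vertical) of 8 interferon-stimulated genes in each library (points) of the 6 groups (horizontal axis), with lines at the group medians, where grey points are CCl4 libraries and purple points the TAA experiment, which was scaled separately, so levels are to be compared only on 1 side of the dotted line. Isg15, Irf7, Irf9, Stat2 and Ifit2 dip at the acute and fibrosis stages, Gbp2 and Isg20 do the opposite, and Ifit1 splits libraries of 1 group far apart.

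The ligands were hardly seen. Of 8 interferon genes listed, 7 were found and 0 passed the filter on low counts. Ifnb1 stayed at or under 0.159 CPM in every library, and Ifng at or under 0.491 outside the TAA control group, where it had 0.577, 0.567, 0.329, 1.38 and 1.95 CPM. Ifne, an interferon of epithelia, was above 0 in each acute and fibrosis library (0.0665 to 0.611 CPM) and at 0 in all others.

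Of the 10 receptor and kinase genes, 4 were higher and 3 lower in acute LSECs, and 4 and 3 at fibrosis. Of all genes 35.5% were higher and 37.9% lower in acute LSECs and 35.3% and 34.9% at fibrosis, shares near those of the list. The receptor chains Ifnar1 and Ifnar2 rose by 1.24 ± 0.23 and 0.90 ± 0.16 in acute and by 1.31 ± 0.23 and 1.04 ± 0.12 in fibrosis LSECs. Tyk2, the kinase bound to IFNAR1, had log2 fold changes of -2.35 ± 0.25 and -2.07 ± 0.20 and was called lower at both stages. Compared with fibrosis, cirrhotic LSECs had lower Ifnar1 (-0.80 ± 0.11) and Ifnar2 (-0.79 ± 0.09) and higher Tyk2 (1.11 ± 0.10). In this comparison 4 of the genes were higher and 2 lower, against 34.3% and 29.5% of all genes. In cirrhosis against healthy LSECs 3 were higher and 1 lower, against 27.1% and 24.7%.

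Of 13 sensors and adaptors found 9 were lower and 2 higher in acute LSECs, and 8 and 2 at fibrosis, where the shares of all genes were 37.9% and 35.5% in acute LSECs and 34.9% and 35.3% at fibrosis. The lower ones included Tlr9, which senses bacterial DNA in endosomes (-5.04 ± 0.65 and -3.97 ± 0.61), Irf8 (-3.75 ± 0.29 and -3.02 ± 0.27) and the adaptor Myd88 (-3.01 ± 0.21 and -2.95 ± 0.21). Traf3 and Tbk1, which relay the signal of the sensors, were the 2 higher genes (2.39 ± 0.17 and 2.00 ± 0.30 in acute LSECs). Against fibrosis, 8 of the 13 were higher in cirrhosis and 2 lower (34.3% and 29.5% of all genes), the latter again Traf3 and Tbk1. In cirrhosis against healthy LSECs 5 were higher and 5 lower (27.1% and 24.7% of all genes). Irf8 and Tlr9 are well expressed in leukocytes, whose markers were lower in the same libraries, and the part of those cells was not tested.

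Of 8 genes listed as brakes of the pathway, 4 were higher and 3 lower in acute LSECs, and 5 and 3 at fibrosis. For Isg20l2 and Usp25 the listing does not establish that they restrain interferon signalling, so these counts are not counts of proven brakes. Of all genes 35.5% were higher and 37.9% lower in acute LSECs and 35.3% and 34.9% at fibrosis. The genes that rose in acute LSECs were Isg20l2 (1.5 ± 0.13), Ptpn2, a phosphatase of the JAK kinases (1.46 ± 0.29), Irf2, a repressor of IRF1 targets (0.96 ± 0.15), and Usp25. Ptpn2 (1.52 ± 0.28), Isg20l2 (1.24 ± 0.12), Usp25 (1.12 ± 0.32), Irf2 and Pias1 rose at fibrosis. Socs3 and Socs1, which block the JAK kinases and are themselves induced by cytokines, were called lower (-5.80 ± 0.26 and -4.50 ± 0.38 in acute LSECs, -5.53 ± 0.29 and -3.47 ± 0.32 at fibrosis). The third lower gene was Ptpn6, a phosphatase of blood cells (-1.98 ± 0.58 and -2.53 ± 0.62). In cirrhotic LSECs Socs3 and Socs1 were 4.57 ± 0.18 and 2.12 ± 0.25 above fibrosis on the log2 scale. Of the 8 genes 3 were higher and 2 lower in that comparison, against 34.3% and 29.5% of all genes. In cirrhosis against healthy LSECs 3 were higher and 2 lower, against 27.1% and 24.7% of all genes.

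A further list held 36 interferon-stimulated genes, 31 of which were found and 29 tested. Of these, 25 were lower and 1 higher in acute LSECs, 23 and 1 at fibrosis, and 24 higher and 1 lower in cirrhosis against fibrosis. Of all genes 37.9% were lower and 35.5% higher in acute LSECs, 34.9% and 35.3% at fibrosis, and 34.3% higher and 29.5% lower in cirrhosis against fibrosis. Against healthy LSECs, 3 were higher and 7 lower in cirrhosis, against 27.1% and 24.7% of all genes. Among the falls in acute LSECs were the chemokines Cxcl10 (-5.95 ± 0.44) and Cxcl9 (-5.0 ± 0.67), which recruit T cells, and Ifi47 (-4.94 ± 0.38), a GTPase. The higher gene was Gbp4, another guanylate-binding protein, by 4.15 ± 0.75 in acute and 4.37 ± 0.28 in fibrosis LSECs. It was also the gene that was lower in cirrhosis against fibrosis (-2.31 ± 0.17). Fibrosis LSECs had more Cxcl9 (2.84 ± 0.59) and Cxcl10 (1.76 ± 0.54) than acute ones.

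In the TAA experiment 13 members were higher and 5 lower in the TAA control group than in the control group, against 12.7% and 14.9% of all genes. The median log2 fold change was 0.46 over the members and 0.026 over all genes. In 14 members every TAA control library was above every control library (18% of all genes) and in 3 below (17.4%). The CPM of this set were scaled apart from the CCl4 libraries. TAA control libraries 14 and 15 were more alike than any other pair of a group. The p-values and the overlap between groups count each as a separate sample.

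Oas2 had 0.599, 0.982, 0.69, 0.211 and 0.328 CPM in control libraries 1 to 5. It had 18.6, 12.5, 23.6, 34.6 and 37.2 in TAA control libraries 10, 12, 13, 14 and 15, which is 46-fold higher without overlap (5.52 ± 0.73, adjusted p = 0.000195). Mx1, a GTPase that traps viral nucleocapsids, had 2.4, 4.31, 4.65, 3.45 and 4.15 CPM in control and 24.9, 16.2, 29.3, 62.9 and 58.5 in TAA control libraries (3.16 ± 0.52, adjusted p = 0.000647). Zbp1, a sensor of Z-form nucleic acid, had 0.141, 0.105, 0.327, 0.0352 and 0.179 CPM in control and 0.815, 1.27, 1.75, 4.46 and 4.43 in TAA control libraries (3.76 ± 0.80, adjusted p = 0.0028). Neither overlapped between the groups. In the control libraries 3 counts corresponded to 0.0895 to 0.109 CPM, so the control values of Zbp1 rest on few counts.

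Mx2 had 71.8, 89.9, 53, 48.7 and 72.8 CPM in control and 227, 186, 248, 238 and 244 in TAA control libraries (1.79 ± 0.16, adjusted p = 2.44e-05). Irf7 had 193, 244, 205, 209 and 229 CPM in control and 386, 381, 381, 533 and 535 in TAA control libraries (1.02 ± 0.12, adjusted p = 0.000108). Ifi27 had 336, 481, 299.8, 338 and 337 CPM in control and 753, 693, 731, 692 and 719 in TAA control libraries (1.02 ± 0.12, adjusted p = 8.28e-05). None of the 3 overlapped between the groups.

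Trim25 and the partners Dtx3l and Parp14 went the other way, again without overlap. Trim25 had 184, 188, 147, 233 and 245 CPM in control and 115, 97.2, 90.4, 97.6 and 99.7 in TAA control libraries (-0.98 ± 0.13, adjusted p = 0.000197). Dtx3l had 389, 363, 358, 499.5 and 434 CPM against 311, 214, 194, 253 and 245 (-0.75 ± 0.14, adjusted p = 0.00108), and Parp14 had 952, 1012, 1227, 1446 and 1749 CPM against 808, 602, 525, 899.8 and 886 (-0.77 ± 0.20, adjusted p = 0.00856). Gbp2 and Rsad2 were also lower but overlapped, and their calls were lost without any 1 of 7 and of 6 of the 10 libraries. Gbp2 had 124, 185, 175, 251 and 288 CPM against 95.6, 64.2, 53.2, 175 and 179 (-0.96 ± 0.37, adjusted p = 0.0485). Rsad2 had 334, 378, 326, 499.8 and 893 CPM against 436, 206, 187, 227 and 217 (-0.89 ± 0.30, adjusted p = 0.0284).

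Isg15 had 139.6, 167, 138, 152 and 193 CPM in control and 278, 153, 182, 261 and 274 in TAA control libraries (0.52 ± 0.17, adjusted p = 0.0295), and Irf9 had 129, 118, 145, 143 and 142 against 142, 145, 161, 185 and 183 (0.27 ± 0.10, adjusted p = 0.0391). Both were under the fold of 1.5 used for a call. Stat2 had 149.5, 159.6, 149, 189.9 and 189 CPM against 135, 137, 142, 177 and 169.7 (-0.14 ± 0.11, adjusted p = 0.314). Ifit1 again split the libraries, with 351 CPM in control library 2 and 3.95 to 8.06 in the other control libraries, and with 659 and 80 CPM in TAA control libraries 12 and 13 and 10.9 to 12.9 in the others. It was not called (1.72 ± 1.47, adjusted p = 0.353).

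**Figure D5:**
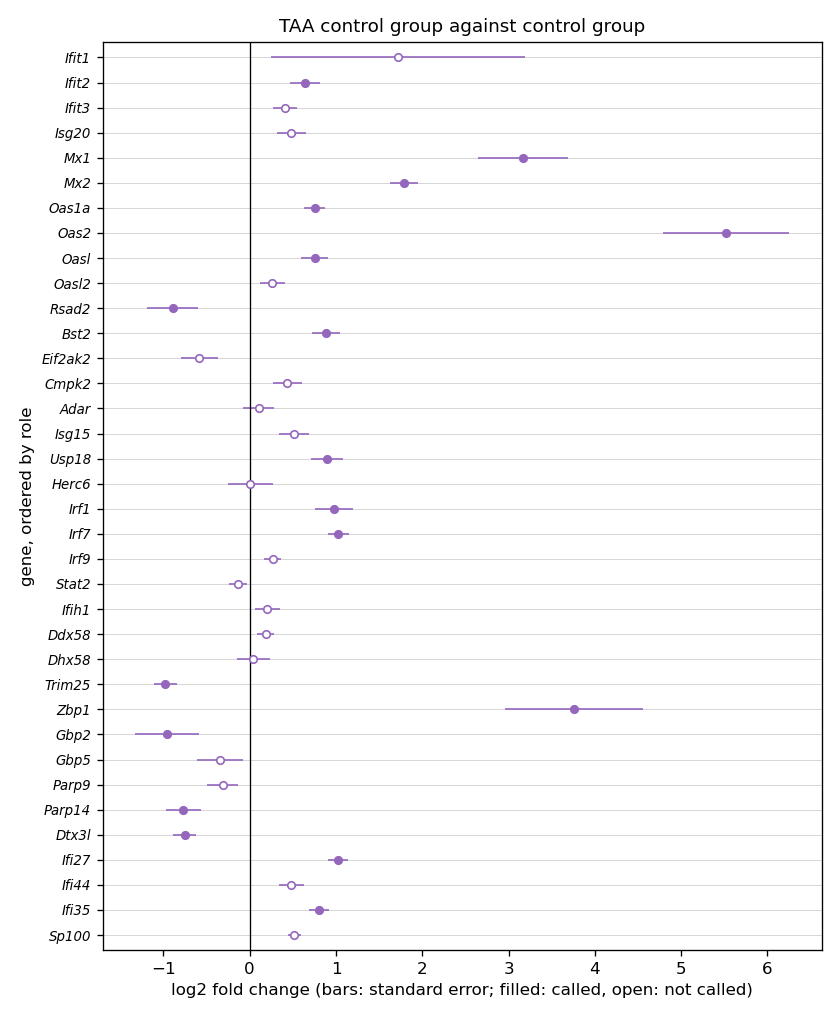
Log2 fold change (horizontal axis) of the 36 measured interferon-stimulated genes (vertical axis) between the libraries labelled TAA control and those labelled control, where bars are standard errors, filled points mark called genes and open points genes that were not called. Oas2 (5.52), Zbp1 (3.76) and Mx1 (3.16) lie farthest to the right, and Trim25, Gbp2, Rsad2, Parp14 and Dtx3l are the filled points left of 0. The value of Zbp1 rests on few counts in the control libraries.

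Of the further list, 7 were higher and 1 lower in the TAA control group (12.7% and 14.9% of all genes), among them Oas3 (3.50 ± 0.61), Gbp1 (3.42 ± 0.66) and Cxcl10 (1.44 ± 0.17), with Slfn2 as the lower gene (-1.04 ± 0.10). Of the 10 receptor and kinase genes 1 was higher and 3 were lower, beside the same shares of all genes. Of 13 sensors and adaptors 4 were higher and 0 lower, and of the 8 genes listed as brakes 2 and 0. Ifnlr1, the receptor of type III interferon, was at -3.28 ± 0.16, with 44.1 to 46.7 CPM in control and 2.63 to 6.12 CPM in TAA control libraries. T and NK cell markers summed to 74.7 to 172 CPM in the TAA control and 2.32 to 21.9 in the control group, and macrophage markers to 81.5 to 334 and 24.2 to 169. Immediate-early genes summed to 40630 to 60920 and 11790 to 24450 CPM, hepatocyte markers to 662 to 1502 and 2250 to 5608, stellate cell markers to 342 to 536 and 2059 to 5092, and LSEC markers to 23270 to 30210 and 19800 to 24250. The part of these cells and genes in the differences was not tested.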

How the data were processed

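RNA-seq was measured in 32 LSEC libraries. The authors prepared stranded poly(A) libraries, aligned reads with STAR to the rat build Rnor_6.0 and estimated counts per gene with RSEM, and the submitters' processing notes also name FastQC, Trim Galore and limma. Versions are not given in the sources used here. The deposited values are expected counts, which were rounded to whole numbers here, with totals of 25646531 to 46464289 a library. Each pair of groups was fitted alone with limma-voom (limma 3.58.1, edgeR 4.0.16 for filterByExpr and TMM factors, R 4.3.3), and a gene was called at a Benjamini-Hochberg adjusted p under 0.05 over all genes tested and a fold above 1.5. CPM used TMM factors over the 22 CCl4 libraries and, separately, over the 10 libraries of the TAA experiment.

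The members and gene lists were chosen with earlier results of these data known. Library values (lowest, median and highest for groups of 6 libraries) are given for up to 6 called members with the largest rise and up to 6 with the largest fall of each comparison and for Isg15, Irf7, Irf9 and Stat2, and other genes come from fixed lists. Alternatives were edgeR's quasi-likelihood test, DESeq2 1.42.0, other scaling and filters, weights, 1 fit over the 4 CCl4 groups, a replicate block and leaving out each library. The fits were tried on simulated data with far fewer changed genes than were called here, raised and lowered in equal number, and a common dispersion. That check does not cover changes in most genes or single libraries that shift many members together. TAA control libraries 14 and 15 were closer to each other (chi-square of 2.96 per degree of freedom) than any other pair of the same group (23.6 or more). They still differed beyond sampling noise, which does not show that they came from different animals. They were kept as 2 samples, and averaging them into 1 library was a further alternative. Promoter sequences came from RefSeq (GRCr8), on a build other than that of the counts, and were matched by symbol. Figures were drawn with matplotlib 3.10.9. In the receptor and kinase list, 1 gene is counted but not reported here.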

Additional observations from a re-analysis of the deposited data

Results flagged for a closer look

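In 17 of 216 sets of libraries (36 genes in 6 groups) the highest or lowest library stood apart from the others, by a gap over the whole range above Dixon's 95% value. Chance gives about 1 in 20, or 10.8 sets. Cirrhotic library 2 was the lowest of its group for Parp9 (gap over range 0.857), Adar (0.786), Parp14 (0.771), Dhx58 (0.726), Eif2ak2 (0.666) and Herc6 (0.654). Fibrosis library 15 was the highest for Sp100 (0.775), Ifi35 (0.763) and Ifit2 (0.733). Ifit1 was lowest in healthy library 4 (0.767) and highest in control library 2 of the TAA experiment (0.841). Ifit2 was highest in healthy library 6 (0.674) and in TAA control library 10 (0.785), and Rsad2 was also highest in TAA control library 10 (0.774). Cmpk2 was lowest in TAA control library 12 (0.838). Oas1a was highest in control library 5 (0.719) and Ifi27 in control library 2 (0.747).

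For 5 members the direction against healthy LSECs was lower at fibrosis and higher in cirrhosis, and the direct comparison of cirrhosis with fibrosis was called. Its log2 fold change was 2.78 for Ifit2, 2.64 for Dtx3l, 2.41 for Parp14, 2.32 for Ifit3 and 1.5 for Sp100. The calls of Parp14 and Ifit3 in cirrhosis against healthy LSECs were lost without some libraries, as given above, and that of Ifit2 at fibrosis was lost without fibrosis library 17 (-1.12, adjusted p = 0.0558 in limma-voom).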

How the results depend on the processing

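Counts of called members stayed within 1.5 times the reported ones in all alternatives but these. In cirrhosis against healthy LSECs 7 members were higher in 1 fit over the 4 CCl4 groups. In fibrosis against acute LSECs 2 were higher with DESeq2, 5 at an unadjusted p, 9 with quality weights, and 7 with acute library 8 and fibrosis library 15 both left out. In the TAA experiment 20 were higher with no fold threshold. The cause was not tested. Leaving out 1 library at a time gave, for higher and lower members, 3 to 3 and 27 to 31 in acute, 3 to 4 and 22 to 29 at fibrosis, 8 to 13 and 8 to 11 in cirrhosis, 1 to 6 (6 without acute library 8) and 0 to 0 in fibrosis against acute, 23 to 28 and 3 to 3 in cirrhosis against fibrosis, and 12 to 14 and 3 to 6 in the TAA experiment (3 without control library 4 or 5 or TAA control library 12 or 13). Of 127 calls 14 were lost without some library. Single genes were followed under the alternatives where some fit called them in that comparison, with Isg15, Irf7, Irf9 and Stat2 in each, and among these signs turned only in values that were not called. In cirrhosis against healthy LSECs Isg15 became 0.26 and Irf9 0.11 with library totals, and Isg15 0.056 with upper-quartile factors, 0.011 with a 1 CPM filter and ran from -0.30 to 0.067 without 1 library (0.0054 without cirrhotic library 2, 0.047 without 3). At fibrosis Mx1 became 0.052 with edgeR and 0.073 with DESeq2. In fibrosis against acute LSECs Irf7 became 0.32 and Irf9 0.12 with quality weights and Stat2 -0.012 in 1 fit over the 4 groups, and without 1 library Irf7 ran from -0.60 to 0.35, Irf9 from -0.31 to 0.19 and Stat2 from -0.14 to 0.25. With library totals in place of TMM factors the share of higher genes among all called genes moved from 50.25% to 60.92% at fibrosis and from 52.25% to 71.31% in cirrhosis, and among called members in cirrhosis from 55% to 68.42%.

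Same-numbered libraries did not deviate together in every pair (correlations of 0.039 to 0.165 for acute and -0.205 to 0.199 for cirrhosis), so the numbers were not taken to pair samples. With a replicate block 3 members were higher and 31 lower in acute LSECs, and 10 and 9 in cirrhosis. Fibrosis and the TAA groups share too few numbers for such a fit.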
